A study of Mus musculus with 23 samples.

Results

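The 7 genes described here encode ligands and receptors through which antigen-presenting cells and T cells exchange costimulatory and inhibitory signals. They are the rows of the deposited panel named Cd80, Cd86 and Vtcn1, which encode ligands, and Cd28, Ctla4, Icos and Havcr2, which encode receptors, and they make up 7 of the panel's 754 genes. The rows were taken by gene name, and the 7 names were chosen with earlier results of these data known. All 7 were above the detection floor in at least 1 of the 23 lungs, so all 7 entered the tests, together with 704 other genes. Havcr2 encodes TIM-3, a checkpoint receptor of the TIM family, so it belongs with the other 3 receptors by role and not by descent from the CD28 family.

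The NanoString nCounter mouse myeloid panel, a hybridization assay that counts RNA molecules with coloured probes and no amplification, was run on RNA from the left lungs of 23 mice. Mice were wild-type (WT) or Fat-1, a transgenic line that expresses a nematode fatty acid desaturase and so makes omega-3 fatty acids from omega-6 fatty acids. Organic dust extract, or the saline vehicle (PBS) in the control groups, was instilled 14 times into mice of both sexes. By the extract codes, dust lungs came from 4 WT females, 3 WT males, 3 Fat-1 females and 3 Fat-1 males, and saline lungs from 2 WT females, 3 WT males, 2 Fat-1 females and 3 Fat-1 males. The labels used here give no age and no background strain. Bronchoalveolar lavage was taken from the whole lung before the left lobe was tied off, in dust and saline mice alike, so cells free in the airways were depleted before RNA was made. Extracts are coded for 2 days of extraction, named day 1 (8 dust and 4 saline lungs) and day 2 (5 dust and 6 saline lungs), and lungs are named by genotype, sex, exposure, number and day.

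T cells need a second signal beside the antigen receptor, and CD80 (B7-1) and CD86 (B7-2) on dendritic cells, macrophages and B cells deliver it by binding CD28. CTLA-4 binds the same pair of ligands more tightly than CD28 and restrains the response, and ICOS is an inducible relative of CD28 with a ligand of its own. VTCN1 (B7-H4) is a B7 family member that inhibits T cells and is found on epithelial cells as well as on some macrophages. TIM-3 is carried by activated and exhausted T cells and also by macrophages, dendritic cells and mast cells. In the lung these genes are read as signs of antigen presentation and of T cells that have met antigen.

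The values are probe counts that were multiplied by 1 scale factor per lung, and are called normalized counts. Counts under 20 read 20 in the deposited values. In lungs with a factor under 1, scaled values under 20 read 20 as well. The member entries at 20 were all in lungs with a factor above 1. Such an entry shows only that the scaled value lay under 20 times that lung's factor, a bound between 24.29 and 84.26. Scale factors ran from 0.682 to 4.213, with a median of 1.255 in dust lungs, 1.402 in the saline lungs of day 2 and 2.756 in the saline lungs of day 1, so low values were hidden most often in saline lungs of day 1. The counts recovered from the steps in the values totalled 110453 to 812429 per lung, and the members themselves had between 20 and 292 counts where they were above the floor. Those counts carry counting error only. In 4 lungs the code, title and characteristics disagree about the group: Fat-1 female saline lung 1 and Fat-1 male dust lung 1 of day 1, whose other labels say WT, WT male saline lung 2 of day 2, whose title says WT female dust, and Fat-1 male saline lung 2 of day 2, whose other labels say WT female saline. Another 4 lungs stand apart in their control probes or scanner messages: Fat-1 female dust lung 2 of day 1, WT female saline lung 1 of day 2, Fat-1 male dust lung 1 of day 2 and WT male saline lung 1 of day 2. Some of the results, though not all, are given both with and without these lungs. Levels of different genes are not set against each other, since each probe has its own efficiency.

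RefSeq promoter sequences (build GRCm38.p6) were at hand for 4 of the 7 members, and those of Ctla4 and Vtcn1 are shown because the first had the highest dust-to-saline ratio of the 7 and the second a ratio near 1. Both are on the plus strand, as the 250 bases before the start site, with matches to the NFAT core letters GGAAA, read on both strands, in capitals.
Ctla4 chr1:60908775-60909024: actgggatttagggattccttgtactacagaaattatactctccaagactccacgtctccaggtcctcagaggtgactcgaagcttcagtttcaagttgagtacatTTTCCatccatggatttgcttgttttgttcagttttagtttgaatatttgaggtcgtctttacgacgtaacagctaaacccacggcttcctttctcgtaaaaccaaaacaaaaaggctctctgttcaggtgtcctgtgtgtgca
Vtcn1 chr3:100825209-100825458: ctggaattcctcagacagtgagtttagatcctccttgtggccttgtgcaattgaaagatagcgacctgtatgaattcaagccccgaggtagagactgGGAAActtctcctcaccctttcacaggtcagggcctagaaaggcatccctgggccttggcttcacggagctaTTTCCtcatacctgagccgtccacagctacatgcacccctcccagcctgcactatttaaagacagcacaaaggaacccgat
The Ctla4 window has 1 match, at -144, and the Vtcn1 window has 2, at -153 and -81, as the leftmost base counted from the start site. GGAAA occurs in 55.6% of the 32851 promoter windows of that length, so a match is common. The AP-1 letters TGACTCA, found in 4.46% of all windows, and the NF-kappa-B letters GGGACTTTC, found in 0.289%, are in none of the 4 members' windows. These matches describe letters and no binding.

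After dust, 6 of the 7 members were higher than after saline: the costimulatory ligands Cd80 and Cd86 and the receptors Cd28, Ctla4, Icos and Havcr2. Vtcn1 did not differ beyond the spread between lungs. The ratios ran from 1.507-fold for Cd28 to 3.885-fold for Ctla4. They come from limma on log2(normalized count + 1), with 8 groups of genotype, sex and exposure, 13 dust lungs against 10 saline lungs, a two-sided test and Benjamini-Hochberg adjustment over 711 genes, and a gene was called where its adjusted p was under 0.05. On this panel 43.3% of the 711 genes were called higher and 9.99% lower, and the median log2 difference over all 711 was 0.26, against 1.12 for the 3 ligands and 1.59 for the 4 receptors. In RNA from whole lobes, more cells of a type and more RNA per cell cannot be told apart.

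**Figure D1:**
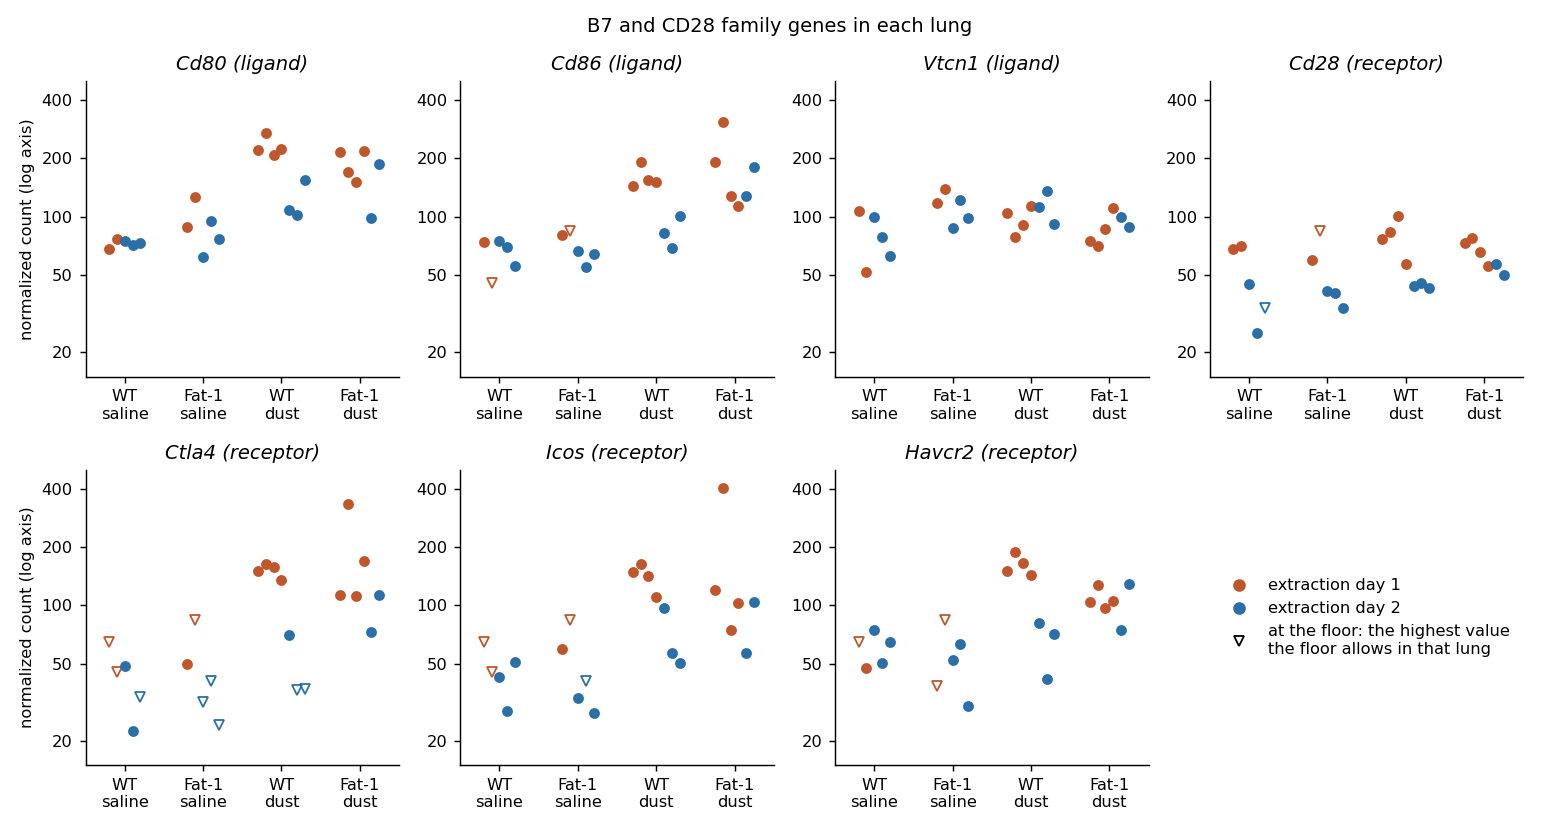
Normalized counts (log axis) of the 7 members in each lung, in the 4 groups of genotype and exposure, coloured by extraction day, with open triangles for lungs at the floor drawn at the highest value the floor allows. Cd80, Cd86, Ctla4, Icos and Havcr2 lie higher in most dust lungs and highest in those of day 1, while Vtcn1 spans 52.21 to 139.03 with the exposures mixed.

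Among the ligands, Cd80 had 98.82, 186.82 and 269.81 normalized counts as the lowest, median and highest of the 13 dust lungs, and 62.01, 75.55 and 126.4 in the 10 saline lungs. Each of the 23 lungs was above the floor, as was so for Vtcn1 too, so the differences of these 2 members contain no floored value. The means were 178.7 ± 53.31 (SD, n = 13) and 81.35 ± 18.51 (SD, n = 10), and 10 of the 13 dust lungs exceeded the highest saline lung. The 3 that did not were dust lungs of day 2. The log2 difference was 1.12 (SE 0.18, limma adjusted p = 9.29e-05), a ratio of 2.17. Ordered by mean, the groups were WT dust (183.6 ± 63.13, n = 7), Fat-1 dust (173 ± 44.34, n = 6), Fat-1 saline (89.81 ± 24.09, n = 5) and WT saline (72.89 ± 3.401, n = 5), and within each exposure the 2 genotypes overlapped.

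Cd86 had 69.43, 144.33 and 307.29 normalized counts as the lowest, median and highest dust lung, and 20, 65.58 and 80.91 in saline, where 2 lungs were at the floor. The highest value, in Fat-1 female dust lung 2 of day 1, lay far above the next, and 12 of 13 dust lungs were above the highest saline lung, or 11 when floored saline lungs are placed at their bound. The log2 difference was 1.33 (SE 0.26, limma adjusted p = 3.93e-04), a ratio of 2.506, and with floored saline values at their bounds it was 1.06 and still called. By group the means were 175 ± 72.1 in Fat-1 dust, 127.5 ± 44.11 in WT dust, 59.08 ± 23.13 in WT saline and 57.39 ± 22.88 in Fat-1 saline (SD, n = 6, 7, 5 and 5), with floored lungs entered at 20 in the saline groups. The dust groups overlapped each other, and so did the saline groups.

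Vtcn1, the inhibitory B7 ligand, had 70.91, 91.45 and 135.21 normalized counts as the lowest, median and highest dust lung and 52.21, 98.91 and 139.03 in saline. None of the 13 dust lungs exceeded the highest saline lung, and none fell below the lowest. The means were 96.95 ± 18.27 (SD, n = 13) and 96.42 ± 26.92 (SD, n = 10), and the log2 difference was 0.01 (SE 0.12, limma adjusted p = 0.975) with a 95% interval of -0.24 to 0.25. With each lung centred on its median gene, the difference became -0.39 and was called lower (limma adjusted p = 0.0394). That centring moved the median over all 711 genes from 0.26 to -0.13 and the split of calls from 308 higher and 71 lower to 202 higher and 244 lower. With housekeeping scaling the difference was -0.13 and not called. Across exposures its group means ran from 112.9 ± 20.27 in Fat-1 saline through 103.9 ± 18.82 in WT dust and 88.88 ± 15.21 in Fat-1 dust to 79.97 ± 23.31 in WT saline (SD, n = 5, 7, 6 and 5), neighbours in this order overlapping.

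Among the receptors, Cd28, the constitutive costimulatory receptor of T cells, moved least. The dust lungs had 42.93, 56.97 and 101.3 normalized counts as the lowest, median and highest, and the saline lungs 20, 40.99 and 70.38, with 2 at the floor. Only 5 of 13 dust lungs were above the highest saline lung, and 1 of 13 with floored lungs at their bound. The log2 difference was 0.59 (SE 0.22, limma adjusted p = 0.0291). The call ended under each treatment of low values or scale that follows: 0.36 with floored saline values at their bounds, 0.02 with a common floor of 84.26 in every lung, 0.20 with median centring and 0.45 with housekeeping scaling. Of these, the common floor could not keep the call. It lay above every Cd28 value except 101.3 in WT male dust lung 1 of day 1, so all other lungs became equal. It also ended when any 1 of 6 lungs was left out, with adjusted p of 0.0566 without WT male dust lung 1 of day 1, 0.0545 without Fat-1 male saline lung 1 of day 1, 0.0786 without Fat-1 female saline lung 1 of day 2, 0.0755 without WT female saline lung 1 of day 2, 0.0524 without WT male saline lung 1 of day 2 and 0.0553 without WT male saline lung 2 of day 2. Without the 4 lungs whose labels disagree it was 0.0937, and without all 4 that stand apart 0.156. Group means were 64.34 ± 22.92 in WT dust, 63.43 ± 10.83 in Fat-1 dust, 45.79 ± 23.39 in WT saline and 39.14 ± 14.35 in Fat-1 saline (SD, n = 7, 6, 5 and 5), and neighbouring groups overlapped.

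Ctla4, the inhibitory receptor that competes with CD28 for CD80 and CD86, had the largest log2 difference of the 7. It was at the floor in 7 of the 10 saline lungs, and the other 3 had 22.51, 48.83 and 50.09 normalized counts. The 13 dust lungs had 20, 113.35 and 333.29 as the lowest, median and highest, and the 2 at the floor were WT dust lungs of day 2. Of the dust lungs, 11 lay above the highest saline lung, or 9 with floored saline lungs at their bound. The log2 difference was 1.96 (SE 0.40, limma adjusted p = 6.40e-04) as deposited and 1.24 with floored saline values at their bounds, still called, so the 3.885-fold ratio depends on where the hidden saline values lay. Both dust groups had higher means, 152.3 ± 93.84 in Fat-1 (n = 6) and 102.6 ± 64.4 in WT (n = 7, 2 lungs at the floor), than the saline groups, at 26.27 ± 12.66 in WT and 26.02 ± 13.46 in Fat-1 (SD, n = 5 each, 3 and 4 lungs at the floor).

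Icos, the inducible costimulatory receptor, had 50.39, 103.79 and 404.2 normalized counts as the lowest, median and highest dust lung and 20, 28.29 and 59.72 in saline, where 4 lungs were at the floor. The lowest dust lungs overlapped the highest saline lungs, and 10 of 13 dust lungs were above all saline lungs, or 9 with floored lungs at their bound. The log2 difference was 1.76 (SE 0.30, limma adjusted p = 1.61e-04), a ratio of 3.382, and 1.21 with floored saline values at their bounds, still called. Group means were 143.8 ± 129.6 in Fat-1 dust, 109.6 ± 44.31 in WT dust, 32.44 ± 13.87 in WT saline and 32.21 ± 16.39 in Fat-1 saline (SD, n = 6, 7, 5 and 5). The spread of the Fat-1 dust group came from Fat-1 female dust lung 2 of day 1, at 404.2, while the next of that group had 120.33.

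Havcr2, the checkpoint receptor TIM-3, had 42.02, 105.35 and 188.5 normalized counts as the lowest, median and highest dust lung and 20, 49.08 and 74.58 in saline, where 3 lungs were at the floor. All 3 floored lungs were saline lungs of day 1. The log2 difference was 1.43 (SE 0.29, limma adjusted p = 6.44e-04), a ratio of 2.695, and 0.94 with floored saline values at their bounds, still called. Of the 13 dust lungs, 10 were above the highest saline lung, or 9 with floored lungs at their bound. Means were 120.3 ± 55.16 in WT dust, 106.3 ± 20.26 in Fat-1 dust, 51.45 ± 20.68 in WT saline and 37.17 ± 19.6 in Fat-1 saline (SD, n = 7, 6, 5 and 5), and the 2 genotypes overlapped within each exposure.

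For no member did all 13 dust lungs lie above all 10 saline lungs, a separation that 3.52% of the 711 genes reached. Cd80, Cd86, Ctla4, Icos and Havcr2 were called higher after dust in each leave-1-out fit and with median centring, housekeeping scaling, the common floor and extraction day as a block. With the 11 lungs of day 2 alone, none of the 7 was called, where 3 of 705 genes were. Raising every lung to the common floor narrowed the receptors most: Ctla4 went from 1.96 to 0.59, Icos from 1.76 to 0.49 and Havcr2 from 1.43 to 0.44, below the 0.94 of Cd80 and 0.76 of Cd86. As deposited the receptor median exceeded the ligand median, and under the common floor the differences of Cd80 and Cd86 exceeded those of all 4 receptors. That floor, 84.26, lay above every saline value of Cd86 and of the 4 receptors, and set their saline lungs to 1 value. The order under it therefore depends on how high each gene's counts were. The difference between ligands and receptors was not tested.

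**Figure D2:**
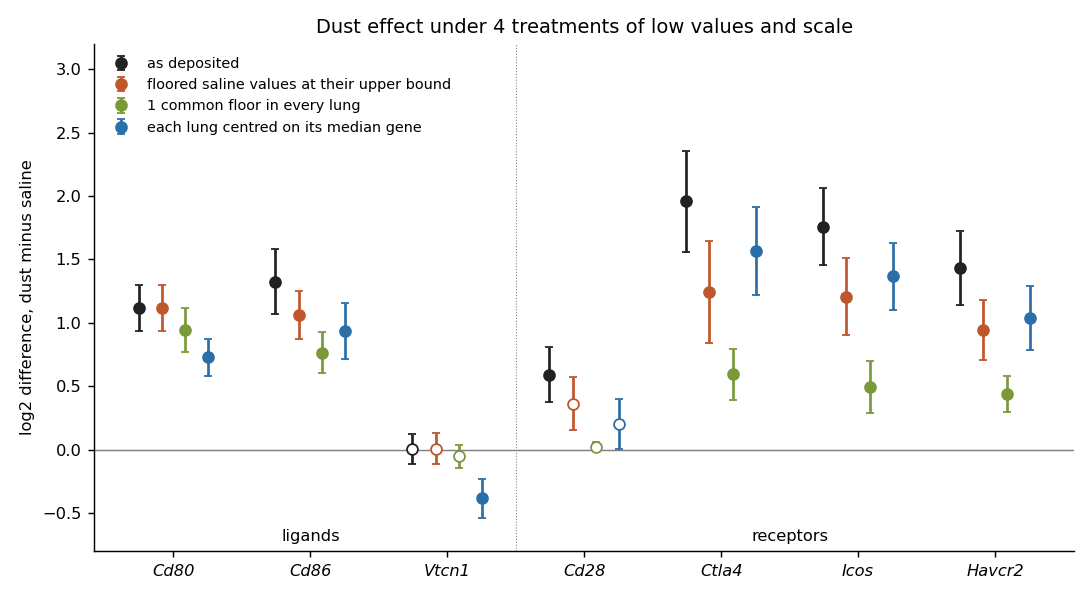
Log2 difference, dust minus saline, for each member under 4 treatments of low values and scale, with bars of 1 SE over 23 lungs and filled points where the limma adjusted p was under 0.05. Cd80 and Cd86 stayed between 0.73 and 1.33, whereas Ctla4, Icos and Havcr2 shrank to between 0.44 and 0.59 under a common floor, Cd28 was filled only as deposited, and Vtcn1 was filled only with median centring.

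The design crosses genotype with exposure, and neither ligands nor receptors were called different between Fat-1 and WT. After dust, 0 of 7 members differed (0% of 711 genes called, 22 at an unadjusted p under 0.05), and after saline 0 of 7 (0% called, 10 unadjusted). The dust effect itself differed between genotypes for 0 of 7 (0% called, 21 unadjusted), by limma in each case. Within WT, 5 members were called higher after dust (30.7% of genes), and within Fat-1 the same 5 (32.2% of genes): Cd80, Cd86, Ctla4, Icos and Havcr2.

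The log2 dust effect on Cd80 was 1.26 in WT and 0.97 in Fat-1, a difference of -0.29 with a 95% interval of -1.05 to 0.47. For Cd86 it was 1.09 and 1.56, a difference of 0.46 with an interval of -0.61 to 1.54. Ctla4 had 1.55 and 2.37, and the interval of its difference ran from -0.86 to 2.51. For Icos, 1.70 and 1.82 gave an interval of -1.16 to 1.40, and for Havcr2, 1.23 and 1.63 gave one of -0.84 to 1.63. Intervals of this width do not show that the genotypes act alike. Cd28 was not called in either genotype, at 0.51 in WT (limma adjusted p = 0.203) and 0.68 in Fat-1 (limma adjusted p = 0.0927).

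Vtcn1 was the member whose dust effect pointed in opposite directions in the 2 genotypes, and it is singled out here after its values were seen. In WT the log2 dust effect was 0.33 (limma adjusted p = 0.126) and in Fat-1 -0.32 (limma adjusted p = 0.141), neither called. Saline lungs of Fat-1 mice had 87.45, 117.51 and 139.03 normalized counts as the lowest, median and highest of 5, and those of WT mice 52.21, 78.45 and 106.95. The saline difference, Fat-1 minus WT, was 0.43 (unadjusted p = 0.0246, limma adjusted p = 1), and 3 of these 10 lungs are among those with conflicting labels. It was 0.39 without the 4 lungs of conflicting labels and 0.38 with groups by the characteristics. After dust the order of the medians was the other way, 87.93 in Fat-1 and 104.17 in WT. The difference of the dust effects was -0.64 (SE 0.23, unadjusted p = 0.0127, limma adjusted p = 0.999), so it did not pass adjustment over 711 genes. Without the 4 lungs of conflicting labels it was -0.57, and with groups by the characteristics -0.54. It kept its sign in all 45 alternatives, from -0.94 to -0.39, with a lowest adjusted p of 0.219. With median centring the Fat-1 effect was -0.71 and called lower (limma adjusted p = 0.0197).

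The number of WT calls changed when single lungs were left out. Shares called over all genes in the refits below are not given, so changes of the members cannot be told from changes of the panel. Leaving out any 1 of the 6 WT lungs of day 1 reduced the 5 called members: to 2 without WT female dust lung 1, WT female dust lung 2, WT male dust lung 1 or WT male dust lung 2, to 1 without WT female saline lung 1 and to 3 without WT male saline lung 1. Without the 4 lungs whose labels disagree the count was 2 in WT and 3 in Fat-1, and over both genotypes 5, Cd28 being lost. In WT, with floored saline values at their bounds it was 2, Cd80 and Cd86. Within Fat-1, 4 to 6 members were called in the leave-1-out fits and 5 with floored values at their bounds: Cd80 lost its call without Fat-1 female saline lung 1 of day 2, and Havcr2 without Fat-1 female saline lung 1 of day 1. Where such a fit left a group with 1 lung, that lung was assumed to vary like the other groups. Males and females did not differ in the dust effect for any of the 7 (0% of genes called, 14 at an unadjusted p under 0.05, limma), and the differences, males minus females, ran from -0.06 for Havcr2 to 0.67 for Cd86 on the log2 scale.

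**Figure D3:**
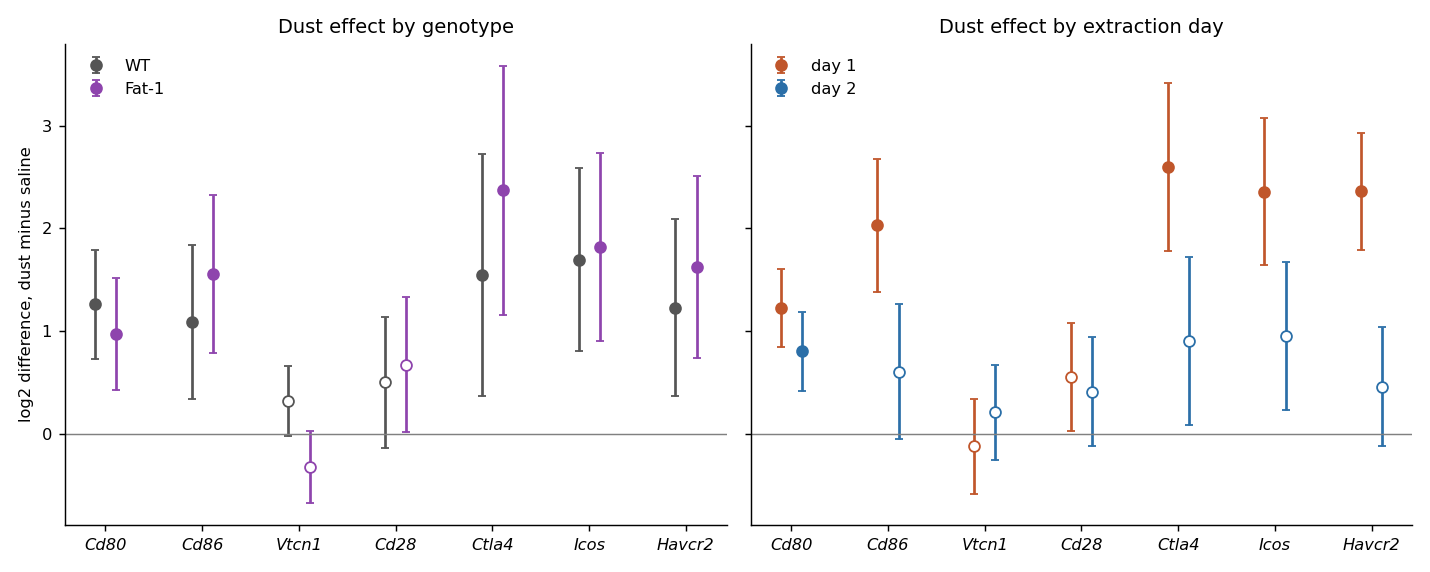
Log2 difference, dust minus saline, with 95% intervals, for each member by genotype (left) and by extraction day (right), filled where the limma adjusted p was under 0.05. The genotypes' intervals overlap for every member, and on the right the day 1 effects of Cd86, Ctla4, Icos and Havcr2 lie, as deposited and with floored saline lungs at 20, between 2.03 and 2.60 and those of day 2 between 0.46 and 0.95.

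Extraction day, unlike genotype, gave calls among these genes. In a fit with exposure by day plus genotype and sex, 5 of 7 members were called higher after dust on day 1 (41.6% of genes) and 1 of 7, Cd80, on day 2 (12.8% of genes). On day 1 the log2 effects were 1.23 for Cd80, 2.03 for Cd86, 2.60 for Ctla4, 2.36 for Icos and 2.36 for Havcr2, with limma adjusted p from 1.77e-06 to 2.50e-05. Of the 4 saline lungs of day 1, 3 were at the floor for Ctla4, Icos and Havcr2 and 2 for Cd86, so those sizes depend on hidden values. With floored saline values at their bounds they were 1.24 for Cd86, 1.39 for Ctla4, 1.15 for Icos and 1.21 for Havcr2, and with the common floor 0.96, 0.89, 0.74 and 0.64, all still called. On day 2 they were 0.80 for Cd80 (limma adjusted p = 0.0083), 0.61 for Cd86, 0.91 for Ctla4, 0.95 for Icos and 0.46 for Havcr2. The Cd80 call of day 2 ended without Fat-1 male dust lung 1 of day 2 (0.66, limma adjusted p = 0.0698), 1 of the lungs with a saturation message, and 3 members were called without WT female dust lung 2 of day 2 and 2 without lung 2 of the Fat-1 females given dust, day 1. Days and cartridges nearly coincide, with 19 of the 23 lungs on their day's main cartridge, so values by day are nearly values by cartridge.

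The difference between the days' effects did not follow the split into ligands and receptors, at 0.42 for Cd80, 1.42 for Cd86 and -0.33 for Vtcn1, and 0.14 for Cd28, 1.69 for Ctla4, 1.40 for Icos and 1.90 for Havcr2. Havcr2 alone of the 7 was called (SE 0.39, limma adjusted p = 0.0128, with 1.69% of genes called), while Cd86, Ctla4 and Icos had limma adjusted p of 0.105 to 0.126. The Havcr2 value rests on saline lungs of day 1 that were at the floor: 3 of 4 were listed at 20 with bounds of 38.53, 64.82 and 84.26, and the other had 47.67, while the 6 saline lungs of day 2 had 30.36 to 74.58. With floored saline values at their bounds the difference was 0.75 and not called, and with a common floor 0.53 and not called. It was also not called without Fat-1 male saline lung 1 of day 1 (1.80, limma adjusted p = 0.0616). The count of members called for this difference rose to 3 without Fat-1 female saline lung 1 of day 1 and to 4 without Fat-1 male dust lung 1 of day 2.

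Among dust lungs alone, where 2 member entries were at the floor, day 1 exceeded day 2 for 4 members (13.2% of genes higher): Cd80 by 0.68, Ctla4 by 1.71, Icos by 1.03 and Havcr2 by 0.83 on the log2 scale, with limma adjusted p of 0.0181, 0.00983, 0.0349 and 0.0331. The 8 dust lungs of day 1 had 111.73 to 333.29 normalized counts of Ctla4, and the 5 of day 2 had 20 to 112.68. Icos ran from 74.49 to 404.2 on day 1 and from 50.39 to 103.79 on day 2. With lung 2 of the Fat-1 females given dust, day 1, left out, Icos (0.83, limma adjusted p = 0.0555) and Havcr2 (0.81, limma adjusted p = 0.0544) were no longer called, so 2 members were. The count was also 2 without WT female dust lung 2 of day 1, WT male dust lung 1 or 2 of day 1, WT female dust lung 1 of day 2 or WT male dust lung 1 of day 2, and 1 without WT female dust lung 2 of day 2 or Fat-1 female dust lung 1 of day 2. Among saline lungs 0 of 7 members differed between days (0.141% of genes called).

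On day 2 the 3 WT dust lungs were the lowest dust lungs for Cd86 (69.43, 82.13 and 100.79) and for Cd28 (45.68, 43.8 and 42.93), and 2 of them held the floored Ctla4 values. The 2 Fat-1 dust lungs of that day had 127.88 and 180.89 of Cd86, and 73.24 and 112.68 of Ctla4. The difference between the days within 1 genotype was not tested.

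Markers of several cell types also differed after dust, and their part in the differences of the members was not tested. The shares called over all 711 genes were 43.3% higher and 9.99% lower. Of 13 macrophage markers 11 were called higher after dust, and their summed level was 5010 to 21309 in dust lungs and 3146 to 4610 in saline lungs. Of 12 dendritic cell markers 9 were higher and 1 lower (sums of 2319 to 7566 and 1778 to 2798). Of 6 genes of class II presentation 5 were higher (23049 to 117295 and 21038 to 34385). Within WT 0 of these 6 were called higher (30.7% of genes) and within Fat-1 5 were (32.2% of genes). The difference of the dust effect between the genotypes was called for 0 of the 6 (0% of genes). Of 8 neutrophil markers tested 5 were higher (1761 to 41175 and 1631 to 3518). In dust lungs, the macrophage sum was 8447 to 21309 on day 1 and 5010 to 14796 on day 2, which overlap. Between the days 0 of 13 macrophage markers were called (13.2% of genes higher on day 1). After dust 9 of the 13 were higher on each day (41.6% and 12.8% of genes). The neutrophil sum was 6362 to 41175 in dust lungs of day 1 and 1761 to 17604 in those of day 2, with 4 of 8 markers higher on day 1.

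The panel holds 2 of 15 listed T cell markers. Cd247, the zeta chain of the T cell receptor complex, had a log2 difference of 0.38 (limma adjusted p = 0.107), and Gata3, a transcription factor of T cells and innate lymphoid cells, fell by 0.67 (limma adjusted p = 0.00217). Cd247 was called higher with array weights (0.59, limma adjusted p = 0.0027). Its difference was 0.56 without the 2 lungs of the highest scale factors and -0.01 with median centring. The sum of the 2 markers, whose log2 differences had opposite signs, was 141.8 to 250.6 in dust lungs and 159.6 to 254.3 in saline lungs. Of the regulatory T cell list the panel holds Il10 alone, and it was at the floor in all 23 lungs. Beside 43.3% of all 711 genes higher and 9.99% lower, 2 of 3 B cell markers were higher and 1 of 3 natural killer and cytotoxic markers was lower. Beside Vtcn1, 1 of 2 epithelial markers was higher, with sums of 8120 to 12950 after dust and 7049 to 11532 after saline, and 3 of 3 endothelial markers were lower.

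The panel holds 24 of 36 other costimulators and checkpoints, and 23 were above the floor. After dust 9 of these 23 (39.1%) were called higher and none lower by limma, beside 43.3% higher over all 711 genes, so the share was no larger than that of the panel. The median log2 difference was 0.39, beside 0.26 over all 711 genes. The largest were Tnfrsf9 (4-1BB, a costimulatory receptor of activated T cells), Cd274 (PD-L1, an inhibitory B7 family ligand) and Sirpa (the myeloid receptor for CD47). Tnfrsf9 had 90.5 ± 52.37 normalized counts in dust lungs, and 9 of 10 saline lungs were at the floor, and its log2 difference was 1.87 (SE 0.34, limma adjusted p = 2.30e-04). Cd274 had 1156 ± 1123 and 290.9 ± 73.06 (log2 difference 1.74, limma adjusted p = 3.65e-04), and Sirpa 2084 ± 550.3 and 889.7 ± 144 (1.18, limma adjusted p = 2.75e-05; SD, n = 13 and 10 throughout). Tnfrsf9 was not called under the common floor (0.31, limma adjusted p = 0.0826). With median centring 4 of the 23 were higher and 7 lower, beside 202 higher and 244 lower of all 711 genes. The direction of the list, like that of the panel, therefore depends on the scale. That of Tnfrsf9, Cd274 and Sirpa did not turn with median centring, housekeeping scaling or the common floor.

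Icosl, which encodes the ligand of ICOS, was not called (220.8 ± 31.11 in saline lungs, 290.4 ± 90.43 in dust lungs, log2 difference 0.35, limma adjusted p = 0.0757). It was named here after its values were seen, as the partner of a member. On day 1, 12 of the 23 other costimulators and checkpoints (52.2%, beside 41.6% of all genes) were called higher and 1 lower, and on day 2, 1 was higher (4.35%, beside 12.8%). A list drawn up for signalling below CD28 and interleukin 2 has 27 genes, of which 8 are on the panel and 7 were above the floor. Of these 7, 4 were called higher after dust (57.1%, beside 43.3% of all genes), with none lower and a median of 0.72. Signalling through CD28 was not measured, and listed genes can also act in other pathways. Vav1, an exchange factor that relays CD28 and antigen receptor signals, had a log2 difference of 2.11 (SE 0.32, limma adjusted p = 6.14e-05). Pik3cg, a leukocyte phosphoinositide kinase, had 1.04 (limma adjusted p = 1.65e-04), and Nfatc2, a transcription factor activated by calcium signals in T cells, 0.85 (limma adjusted p = 0.0055). With median centring 2 of the 7 were higher and 1 lower, beside 202 higher and 244 lower of all 711 genes. Nfatc2 was not called under that centring (0.46, limma adjusted p = 0.0585). Vav1 and Pik3cg are expressed in myeloid cells as well as in T cells.

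**Figure D4:**
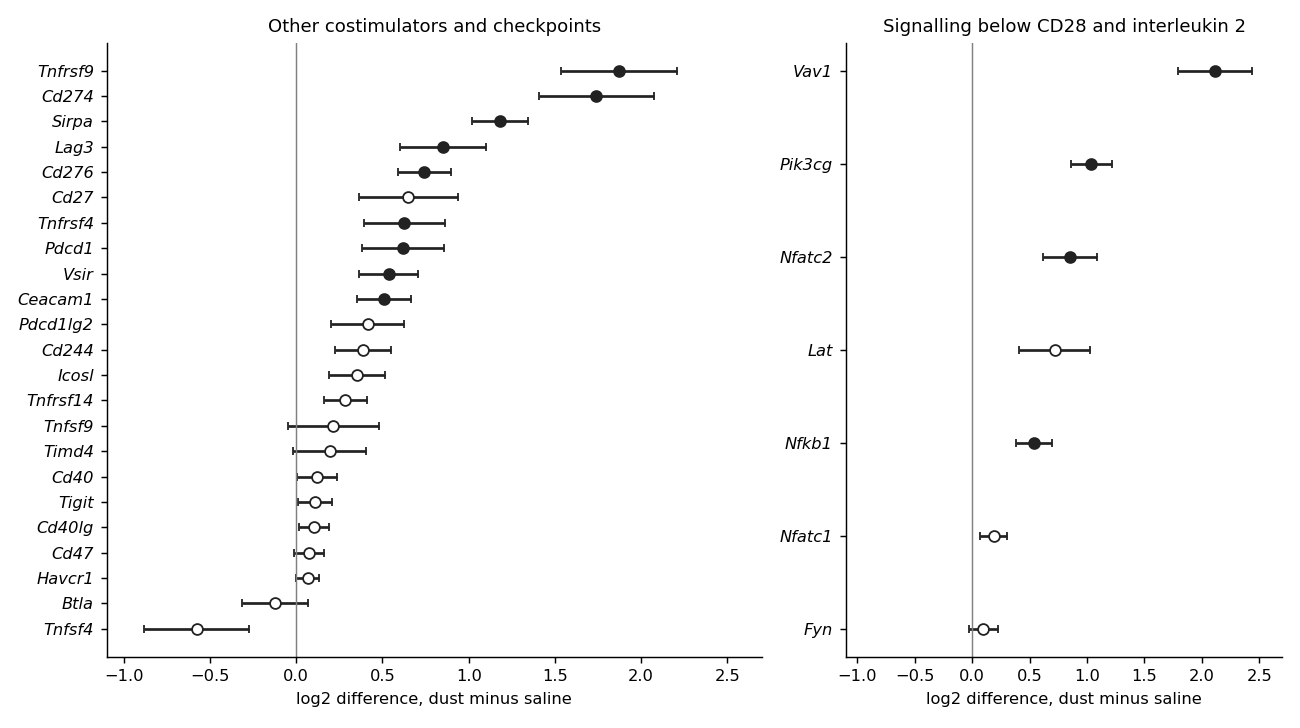
Log2 difference, dust minus saline, with bars of 1 SE over 23 lungs, for 23 other costimulators and checkpoints (left) and 7 genes listed for signalling below CD28 and interleukin 2 (right), filled where the limma adjusted p was under 0.05. Tnfrsf9, Cd274 and Sirpa lie above 1 on the left and Vav1 and Pik3cg on the right, and no filled point lies below 0.

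Across the 13 dust lungs the members varied together in part. Of 21 pairs, 15 had a permutation p for Pearson's r that stayed under 0.05 after Benjamini-Hochberg adjustment over the 21, but within the 8 dust lungs of day 1 none of the 21 did, by an exact permutation test with a smallest adjusted p of 0.0814. The values of a lung share its scale factor and its extraction day, so the correlation over all 13 includes the gap between the days. Ctla4 and Icos had r = 0.84 and rho = 0.86 over 13 lungs (permutation p = 8e-05 and 0.00046) and r = 0.91 and rho = 0.60 over the 8 of day 1 (exact permutation p = 0.0116 and 0.132). Leaving out the 2 lungs farthest from the median of Ctla4 on day 1, r fell to 0.25, so on that day the relation rests on those lungs. Cd86 and Vtcn1 ran against each other, with r = -0.83 and rho = -0.79 over 13 lungs (permutation p = 0.00054 and 0.00223, two-sided) and r = -0.79 and rho = -0.76 on day 1 (exact permutation p = 0.0116 and 0.0368), and r of -0.64 and -0.61 without the 2 farthest lungs. Cd80 and Cd86, the pair that shares its receptors, had r = 0.60 over 13 lungs (permutation p = 0.03, rho 0.54) and -0.08 on day 1 (exact permutation p = 0.837).

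The genes whose log2 values ran most like each member over the 13 dust lungs, among 468 genes that were above the floor in all lungs, were named by Pearson's r, as a description. Cd80 was nearest to Birc3 (an inhibitor of apoptosis, r = 0.94), Il1rn (the interleukin 1 receptor antagonist, 0.92) and Ptafr (the receptor for platelet-activating factor, 0.90), and within day 1 these were 0.75, 0.61 and 0.63. Cd86 was nearest to Irf5 (0.94), Mapk13 (0.93) and Tnfaip8 (0.92), with 0.88 to 0.92 within day 1. For Vtcn1 the nearest were the double-stranded RNA sensor Tlr3 (0.67), the Wnt receptor Fzd6 (0.63) and Arhgef28 (0.62), all lower than for any other member.

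Cd28 was nearest to Cd247 (0.89), a T cell receptor subunit, then to H2-DMb2 (0.88), and within day 1 both were 0.78. Ctla4 was nearest to Pf4 (a platelet chemokine, 0.93), Il10ra (0.90) and Atf3 (0.90), with Il10ra at 0.36 within day 1. Icos was nearest to Casp1 (0.93), Ifnar1 (0.93) and Cd274 (0.93), which became 0.86, 0.84 and 0.84 with lung 2 of the Fat-1 females given dust, day 1, left out. Havcr2 was nearest to Ptprc (CD45, the pan-leukocyte phosphatase, 0.98) and Selplg (0.95), with 0.98 and 0.92 within day 1. All of these lists were chosen as the highest of 468, so their size is no test.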

How the data were processed

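NanoString nCounter counts of 754 genes (734 endogenous, 20 housekeeping) were deposited for 23 left lungs as a normalized signal. Per the file headers the deposited table holds normalized data from the myeloid panel, and neither software nor reference genes for the scaling are named there (not given in the sources used here). From the values, each lung's signal is its probe counts times 1 factor (steps whole within 0.1 for 100% of values above the floor). Counts under 20 read 20, as do scaled values under 20 in lungs with a factor under 1. Groups follow the extract codes, which title and characteristics match for 19 lungs and not for 4. Each left lung is 1 mouse.

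Here log2(value + 1) of the 711 genes above the floor in at least 1 lung was fitted with limma 3.58.1 in R 4.3.3 (8 group means, empirical Bayes), or by exposure and day with genotype and sex added. Tests were two-sided and adjusted p under 0.05 was called. The fits were checked on simulated data. Correlations used permutation tests (exact for 8 lungs). The named genes were all 7 members, the 3 nearest genes by r of members above the floor in at least 10 dust lungs, and, per pathway list, those called among its 3 largest differences; Icosl was added after its value was seen. Of the nearest genes, 2 are not reported here. The members and lists were chosen with earlier results of these data known. Same-numbered lungs, taken over both days together, did not deviate together on average (mean correlation 0.004, against -0.006 for other pairs). Lungs were therefore not paired by number, and pairing within a day was not tested. Alternatives covered the pseudocount, filters, floor, scaling, blocks, labels and left-out lungs. Depth was 110453 to 812429 recovered counts per lung. No protein sequences were used here.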

Additional observations from a re-analysis of the deposited data

Results flagged for a closer look

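Fat-1 female dust lung 2 of day 1 was far from the other lungs of its group for 3 members. Its Icos value, 404.2 normalized counts, stood above the next Fat-1 dust lung at 120.33 and the next dust lung of day 1 at 162.63. Its Ctla4 value was 333.29, with 169.38 the next in both groups, and its Cd86 value was 307.29, with 191.83 the next on day 1. These were 5 of 36 group tests by Dixon's criterion, and a further 20 groups had a lung at the floor and were not tested. Groups by genotype and by day share lungs, so the 5 flags are 3 values of this lung. The criterion was applied to normalized counts and not to the log2 values of the fits. Its nominal rate of 1 in 20 assumes normally distributed values, which was not checked, so no chance rate is given. Its top positive control count was 5099, among 2888 to 46929 over all lungs, and its scale factor of 2.364 was the highest among dust lungs, and their part in these values was not tested.

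The dust effect on Havcr2 differed between extraction days by 1.90 on the log2 scale, by a test of the difference itself (limma adjusted p = 0.0128). With floored saline values at their bounds it was 0.75 and not called.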

How the results depend on the processing

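Of 45 alternatives, 44 left 5 or 6 members called after dust, and the lungs of day 2 alone left 0. In WT (5 called) the count was 1 with the common floor, 2 with median centring, 2 without the 4 lungs whose labels differ, 0 with the lungs of day 2 only, 1 to 5 with 1 lung left out, and, in alternatives chosen after seeing the data, 2 at the floor bounds, 3 without the lungs with a saturation message and 1 without the 2 highest scale factors. In Fat-1 (5 called) it was 2, 3 and 0 with the common floor, without the 4 label lungs and with day 2 only, and 4 to 6 with 1 lung left out. On day 2 (1 called) it was 2 without lung 2 of the Fat-1 females given dust (day 1), 3 without both that lung and WT female saline lung 1 of day 2, 3 with array weights, 2 at the floor bounds, 0 without the saturation lungs, 0 without all 4 lungs that stand apart, and 0 to 3 with 1 lung left out. The difference between days (1 called) gave 0 with the common floor, 0 without both lungs, 4 with array weights, 0 at the floor bounds, 4 without the saturation lungs, 3 without the 4 that stand apart, 0 without the highest factors, and 0 to 4 with 1 lung left out. Day 1 against day 2 gave 1 in saline lungs at the floor bounds (main 0) and, in dust lungs (main 4), 2 without the first named lung, 2 without both, and 1 to 6 with 1 left out. The counts for genotype and sex stayed at 0 in all 45. The cause of these moves was not tested. Calls over the whole panel moved as well. For dust against saline over both genotypes, 308 of 711 genes were called higher in the main fit. With the common floor 276 of 623 were, and with median centring 202 of 711. Shares over all genes for the other counts are not given, so moves of the members cannot be told from moves of the panel.

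Vtcn1, dust against saline, turned negative with a pseudocount of 20 (-0.0003), the common floor (-0.0544), median centring (-0.39), housekeeping scaling (-0.13), day 1 only (-0.12) and without WT female saline lung 1 of day 2 (-0.0079), and was -0.0477 to 0.0578 with 1 lung left out. In WT it was -0.0632 with median centring, and with day 2 only Ctla4 was -0.22, where 2 of 3 WT dust lungs were at the floor, and Havcr2 -0.0195. With a replicate block, 6 members were called after dust, and the log2 differences were 1.10 for Cd80, 1.88 for Ctla4 and 0.61 for Cd28. In WT, Ctla4 lost its call under that block. Depth limits the saline lungs of day 1, where up to 84.26 normalized counts can hide under the floor.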
